A study of Mus musculus and Bos taurus with 6 samples.

Results

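The mouse list of SOX9-bound regions held 679 peaks under the chromosome names 7 and 17, which was 10.6% of the 6419 peaks of the list. All lines with either name were taken, 443 for chromosome 7 and 236 for chromosome 17, and none was filtered out. SOX9 binding was measured by ChIP-seq, in which fixed chromatin is sheared, pulled down with an antibody and sequenced. The tissue was testis of Swiss OF1 mouse fetuses at stage E13.5, with 2 libraries immunoprecipitated with a rabbit antibody against SOX9 and 1 input library of chromatin without pull-down. The tissue powder was fixed with disuccinimidyl glutarate, which joins proteins to one another, and then with formaldehyde, so a region can be recovered when SOX9 reaches it through another protein. The labels give no genotype change and no treatment, and whole gonads were used, so the regions were not assigned to a cell type. Values come from 1 list that stands for all 3 mouse libraries and holds positions and widths only. The spread between replicates and the read depth are therefore unknown, every interval below is a 95% interval for counting error, and no value was tested across animals.

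SOX9 is a transcription factor with an HMG box, a domain that binds and bends DNA. In the fetal gonad it drives supporting cells to become Sertoli cells, which then direct the formation of testis cords and of the other testicular cell types. Both named chromosomes are known for tandem gene families, sets of similar genes that arose by repeated local duplication and lie side by side. Many of these families work in other tissues, such as the receptors of the nose and the vomeronasal organ, which detect odours and pheromones. The chromosomes were chosen by their low number of peaks per gene in this list, so that ratio is given as a description, as are all comparisons with the other 16 autosomes of the list.

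The name of chromosome 7 passed a check against gene positions and the name of chromosome 17 did not. For each name in the list, the spacing of its peaks was laid over the spacing of the protein-coding genes of 20 mouse chromosomes, and the number of peaks that fell within a 1 kb bin holding a gene's start or end was counted at the best common shift. The gene table is of a different genome build (GRCm38), and no position was converted. A common shift allows for a constant offset between the builds, but not for one that changes along a chromosome. Of the 443 peaks named chromosome 7, 67 (15.1%) met a gene end of chromosome 7, against at most 25 for any other chromosome. Of the 236 peaks named chromosome 17 (label 17 from here on), 105 (44.5%) met a gene end of chromosome 16 at a shift within 1 kb of zero, and 19 met one of chromosome 17. Apart from chromosome 16, the best count of any chromosome was also 19. Of the 18 autosome names in the list, 17 were best matched by genes of the same chromosome, each with at least 1.48 times the count of the next chromosome. For label 17 the count for chromosome 16 was 5.53 times that of the next. Shares and ratios also depend on how constant the offset between builds is. They therefore compare gene chromosomes for 1 name and do not rank the names.

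**Figure D1:**
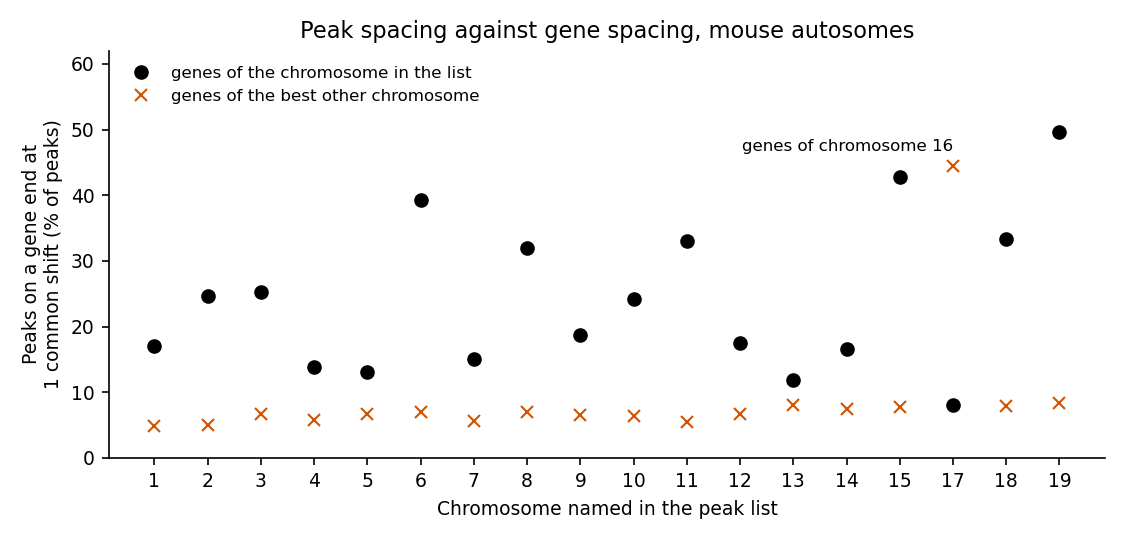
Share of peaks (percent, vertical axis) that met the start or end of a protein-coding gene at the best common shift, for each chromosome name in the list (horizontal axis); black points use genes of the named chromosome and crosses the best other chromosome. The black point lies above the cross for every name but 17, where 44.5% of peaks met genes of chromosome 16. Heights also depend on how constant the offset between builds is, so they do not rank the names.

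Most of the length of label 17 gave the same match when each 10 Mb was given its own best shift. In 7 of the 10 stretches of 10 Mb into which the peaks named chromosome 17 were divided, chromosome 16 alone gave the best match, and in 0 of them did chromosome 17. The other three were the seventh to the ninth, with 7, 10 and 9 peaks. In the first of these chromosome 16 tied with 3 others at 4 peaks, and in each of the later ones another chromosome matched 5 peaks against its 4. Margins were also small in the first stretch, with 8 peaks for chromosome 16 against 7 for the next, and in the fifth, with 6 against 5. In the 10 Mb that held most peaks of label 17, 29 of 55 met a gene end of chromosome 16 and 12 one of chromosome 17. For chromosome 7, its own genes alone gave the best match in 14 of 16 such stretches and shared it in the other two, which held 2 and 9 peaks. The list used here has 0 lines named chromosome 16, and no autosome name in it was best matched by genes of chromosome 17. The peaks are therefore called by their label, their positions are printed as the list gives them, and they are not described as peaks of chromosome 17. How the name came about was not tested. By this check no autosome name in the list stood for chromosome 17, so no peaks were analysed as those of chromosome 17.

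On chromosome 7, SOX9 peaks were few for the number of genes, while their number for the length of the chromosome was ordinary. It carried 2030 protein-coding genes in the RefSeq table, the most of any autosome compared, or 21.8 peaks per 100 genes (19.8 to 24.0). The other 16 autosomes held 33.9 per 100 genes when pooled (33.0 to 34.8) and between 29.4 and 42.3 singly, so all of them lay above chromosome 7. Chromosome 7 thus had 0.644 times the pooled value (0.584 to 0.710). Per length the order differed. Chromosome 7 held 2.97 peaks per Mb of its span, measured between its outermost peaks (2.70 to 3.26), against 2.78 in the pooled others (2.71 to 2.85), and 5 of the 16 lay above it. The ratio of densities was 1.07 (0.968 to 1.18), an interval that includes equality, and among the widest 50% of the list it was 0.890. No interval was computed for the latter, and a cut by width removes more peaks where widths are smaller, as on chromosome 7.

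The tandem families accounted for much of the gene number of chromosome 7. Members of 15 listed families made up 666 of its genes, or 32.8%, against 7.17% on the other 16 autosomes. The largest was the olfactory receptors, which detect odours, with 239 genes and a run of 42 side by side. There were 178 vomeronasal receptors, which detect pheromones, and 101 zinc finger genes named Zfp or Zscan, a class of DNA-binding proteins. The secretoglobins, small secreted proteins that include the androgen-binding protein genes of rodent saliva, numbered 36, of which 35 lay in 1 run. All 26 kallikreins, a family of serine proteases, formed a single run. All 28 Ceacam and Psg genes, which encode cell adhesion proteins and glycoproteins of the placenta, lay on chromosome 7 among the autosomes compared, as did all 6 Obox genes, homeobox genes of the egg. The chromosome also held 19 Mrgpr genes, receptors of sensory neurons, 15 Cyp2 genes, which encode enzymes that oxidise steroids and foreign compounds, 13 Nlrp genes and 5 Lilr or Pir genes.

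Without these families chromosome 7 moved close to the other autosomes but stayed in their lower part. It then held 32.5 peaks per 100 genes (29.5 to 35.6), against 36.5 in the pooled others (35.5 to 37.4), and 14 of the 16 lay above it. The ratio rose from 0.644 to 0.890 (0.806 to 0.981). The interval treats peaks as independent, which they are not, so it is too narrow. Part of the rise in the ratio follows from the choice of families, since none were listed with the other autosomes in view. Its 9.15 remaining genes per Mb were exceeded by 2 of the 16. Which peaks lie in or near the family genes was not analysed here, since the gene table is of another build than the list.

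For label 17 the low number of peaks per gene depended on the name. Divided by the 1059 genes of chromosome 17, the 236 peaks gave 22.3 per 100 genes (19.5 to 25.3), 0.658 times the pooled others (0.575 to 0.750). Without the 202 family genes of chromosome 17 the value was 27.5 (24.1 to 31.3), and all 16 other autosomes lay above it in both counts. These 202 genes included 51 olfactory receptors, 46 vomeronasal receptors and 47 zinc finger genes. Another 38 were H2 genes of the major histocompatibility complex, which present peptides to immune cells. Divided instead by the 679 genes of chromosome 16, the chromosome whose gene spacing the peaks followed, the value was 34.8 per 100 genes (30.5 to 39.5). That was 1.03 times the pooled others (0.897 to 1.17), with 5 of the 16 above and 11 below. Chromosome 16 carried 43 family genes, 36 of them olfactory receptors, and no vomeronasal receptor or H2 gene. Without these the value was 37.1 (32.5 to 42.2), or 1.02 times the others.

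**Figure D2:**
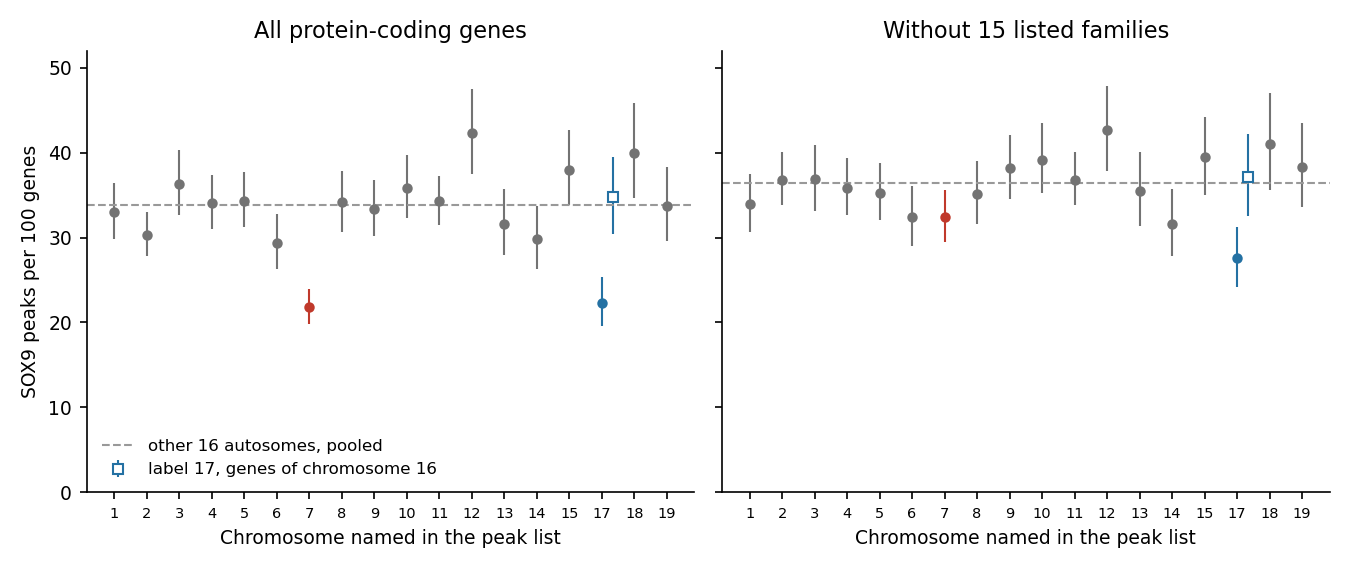
SOX9 peaks per 100 protein-coding genes (vertical axis, with 95% Poisson intervals) for each chromosome name in the list, over all genes (left) and without 15 tandem families (right); the open square divides the peaks of label 17 by genes of chromosome 16, and the dashed line is the pooled value of the other 16 autosomes. Chromosome 7 moved from 21.8 to 32.5 without the families, and label 17 lay at 22.3 with genes of chromosome 17 and at 34.8 with genes of chromosome 16.

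Per length, label 17 held 2.59 peaks per Mb (2.27 to 2.95), with 9 of the 16 autosomes above it. Its ratio to the pooled others was 0.933 (0.816 to 1.06) and chromosome 7 was 1.15 times as dense (0.976 to 1.35), both intervals that include equality. The density per Mb does not depend on which chromosome the genes are counted on.

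Peaks were unevenly spread along both. Of 150 windows of 1 Mb on chromosome 7, 50 (33.3%, exact binomial interval 25.9 to 41.5) held no peak. For label 17 these were 30 of 92 (32.6%, 23.2 to 43.2), and in the pooled others 543 of 2073 (26.2%, 24.3 to 28.1). Only chromosome 14, with 34.5%, had a larger share of empty windows than either. When the windows were shifted by 500 kb the shares were 30.7% and 30.4%, against 26.8% in the others, and 5 of the 16 lay above each. Both intervals include the pooled share of the others.

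The windows that held any peak were more crowded on chromosome 7 than in the pooled others. A window with at least 1 peak held 4.43 on average on chromosome 7, 3.81 in label 17 and 3.74 in the pooled others. Of the 16 other autosomes, 2 lay above chromosome 7, with a maximum of 5.52 on chromosome 11. Only 14 windows of chromosome 7 (9.33%) held a single peak, against 18.2% of windows in the others and 18.5% in label 17. The variance of the window counts was 3.69 times their mean on chromosome 7 and 3.84 times in label 17, within the range of 1.96 to 4.11 of the other autosomes. The fullest 10% of windows held 34.5% of the peaks of chromosome 7 and 39.8% of those of label 17, against 35.4% in the others. Windows of at least 10 peaks numbered 8 on chromosome 7 (5.33%, 2.33 to 10.2), 3 in label 17 (3.26%, 0.678 to 9.23) and 88 in the others (4.25%, 3.42 to 5.20).

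**Figure D3:**
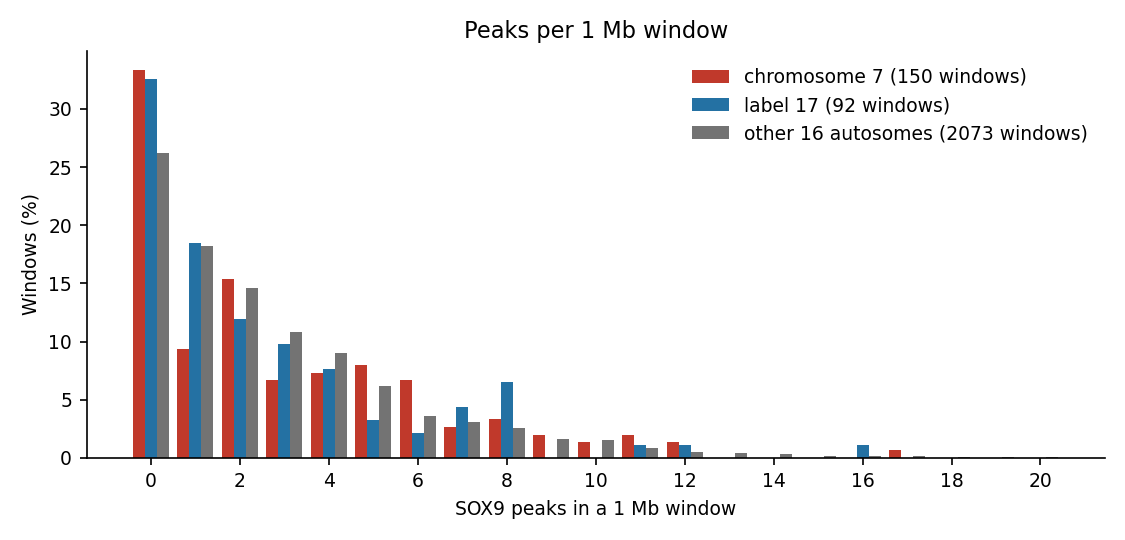
Share of 1 Mb windows (percent, vertical axis) by the number of SOX9 peaks they held (horizontal axis), for chromosome 7, label 17 and the other 16 autosomes pooled. Empty windows made up 33.3%, 32.6% and 26.2%, and the fullest windows held 17 peaks on chromosome 7 and 16 in label 17.

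The fullest window of chromosome 7 ran from 134000001 to 135000000 (mm9) and held 17 peaks, which covered 18.2 kb and measured 563 to 1875 bp. It was followed by 2 windows of 12 peaks, from 19000001 to 20000000 and from 148000001 to 149000000. These had equal counts but different widths, with medians of 800.5 and 1167 bp. Next came 3 windows of 11 peaks, starting at 30000001, 87000001 and 108000001, with median widths between 869 and 883 bp. Of the 17 peaks in the fullest window 6 had another within 10 kb of it, so the count did not come from 1 tight group. The longest run of windows that each held a peak was 8 windows, from 123000001 to 131000000, with 30 peaks.

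In label 17 the fullest windows adjoined each other. The window from 17000001 to 18000000 held 16 peaks and the next, to 19000000, held 12. They lay in the longest run of filled windows, 12 windows from 13000001 to 25000000 with 66 peaks. That is 5.50 peaks per Mb and 66 of the 236 peaks. The third window by count, from 4000001 to 5000000, held 11 peaks, among them the widest of the label. Behind them, 6 windows tied at 8 peaks, of which those starting at 31000001, 32000001 and 33000001 adjoined, as did those starting at 90000001 and 91000001. The remaining one started at 21000001.

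Density along the 2 spans followed different courses. When the span of chromosome 7 was cut into 3 equal parts, the first held 148 peaks (2.98 per Mb, 2.52 to 3.50), the middle part 100 (2.01, 1.64 to 2.45) and the last 195 (3.92, 3.39 to 4.52). The middle part was thus the sparsest, and its interval did not overlap those of the others. These intervals treat peaks as independent. The window counts of chromosome 7 had a variance of 3.69 times their mean, so the intervals are too narrow. Whether the parts differ was not tested. In steps of 10 Mb, the counts ran from 2 peaks between 40000001 and 50000000 to 51 between 130000001 and 140000000. In label 17 the first part held 127 peaks (4.19 per Mb, 3.49 to 4.98), more than the middle with 58 (1.91, 1.45 to 2.47) and the last with 51 (1.68, 1.25 to 2.21). The last 10 Mb step, which started at 90000001, held 27 peaks, while the 3 steps before it held 7, 10 and 9. Of the 51 peaks of the last part, 27 therefore lay near its end.

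Long stretches without a peak were present on both. On chromosome 7, 13 stretches of at least 2 Mb, measured from the end of one peak to the start of the next, summed to 48.2 Mb or 32.3% of the span. In label 17, 12 such stretches summed to 37.1 Mb or 40.8% of the span. On the other 16 autosomes the share ranged from 15.7% to 39.1%, with 28.8% when pooled, so label 17 lay above all of them and 5 lay above chromosome 7. Stretches occurred at 8.72 per 100 Mb on chromosome 7, 13.2 in label 17 and 8.31 in the pooled others. The ratio to the others was 1.05 for chromosome 7 (0.548 to 1.84) and 1.59 for label 17 (0.805 to 2.85), and both intervals include equality. With a minimum of 3 Mb the share of the span was 24.3% on chromosome 7 and 24.4% in label 17, and 5 and 4 of the 16 lay above them. Outside the stretches of at least 2 Mb the densities of the 2 were alike in value, at 4.39 and 4.38 peaks per Mb, against 3.90 in the others. Assembly gaps and repeats in which reads cannot be placed also give stretches without a peak, and their part was not tested.

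**Figure D4:**
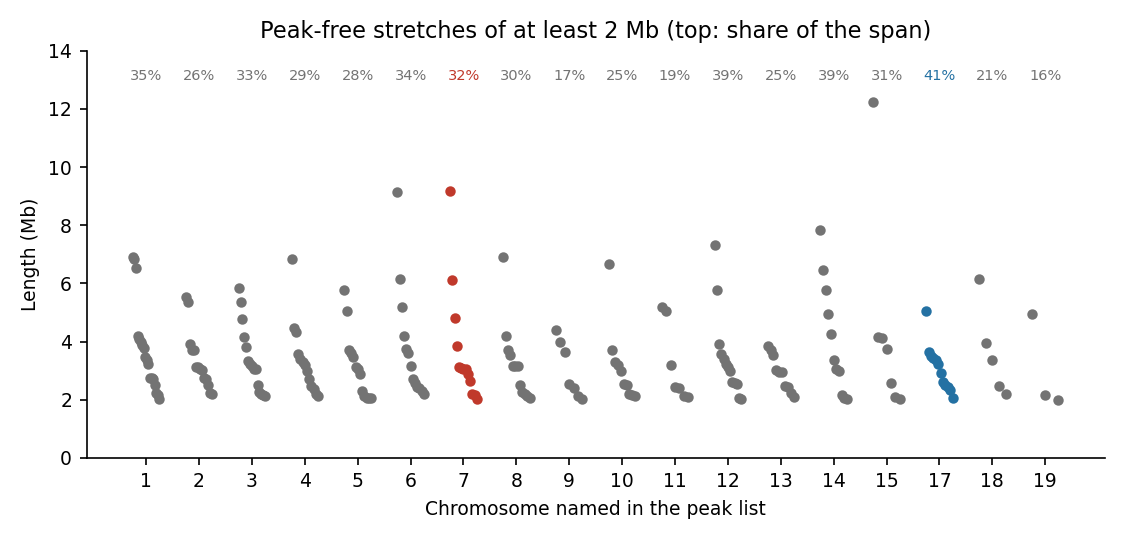
Length in Mb (vertical axis) of every stretch of at least 2 Mb without a SOX9 peak, for each chromosome name in the list; the percentage on top is the share of the span in such stretches. Chromosome 7 had 1 stretch of 9.18 Mb and 12 shorter ones, and the longest of label 17 was 5.04 Mb.

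The longest stretch of chromosome 7 ran from 38969986 to 48153643 (9.18 Mb) and contained 9 empty windows in a row. Of the other 16 autosomes only chromosome 15 had a longer one. The peak at its left edge, 2096 bp wide, was the fourth widest of chromosome 7. The 2 next in length ran from 7252983 to 13365415 (6.11 Mb) and from 20214893 to 25022266 (4.81 Mb). The latter began in the window next to one of 12 peaks, which ended at 20000000, so that one of the fullest windows and one of the longest empty stretches were near neighbours. Stretches of 3.84 Mb (59261347 to 63097198) and 3.13 Mb (100229979 to 103358706) followed. Of the 13 stretches 6 began in the first part of the span, 6 in the middle and 1 in the last.

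In label 17 the longest stretch ran from 67621288 to 72662951 (5.04 Mb), and 13 of the 16 other autosomes had a longer one. The next 4 were of similar length. They measured 3.62 Mb (5204490 to 8829058), 3.50 Mb (81200933 to 84702927), 3.45 Mb (38742908 to 42190036) and 3.37 Mb (52453238 to 55821629). The large share of the span thus came from many stretches of moderate length. Of the 12 stretches 2 began in the first part of the span, 4 in the middle and 6 in the last.

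Over the whole list, peaks of chromosome 7 had the smallest median width of the autosomes compared. It was 901 bp (order-statistic interval 874 to 930), with quartiles at 712.5 and 1173.5 bp, against 960 bp (948 to 972) in the pooled others. All 16 other autosomes had a larger median, from 922 bp on chromosome 5 to 1023 bp on chromosome 10. The interval of chromosome 7 did not overlap the pooled interval. It overlapped or touched the interval of every single autosome except chromosomes 3, 9 and 10, whose lower limits were 953, 950 and 981 bp. The direction turned among the widest 50% of the list, where the median was 1243 bp on chromosome 7 and 1209 bp in the others, and 2 of the 16 lay above chromosome 7. Label 17 had a median of 937.5 bp (879 to 1013), with quartiles at 746 and 1197 bp, and 11 of the 16 lay above it. Its interval overlapped that of chromosome 7 and the pooled one.

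The medians lay furthest apart in thinly filled windows, but only in windows of 3 to 9 peaks did the intervals of chromosome 7 and of the others not overlap. In windows of 1 to 2 peaks the median width was 842.5 bp on chromosome 7 (725 to 1008, 60 peaks), 1003 bp in label 17 (810 to 1097, 39 peaks) and 1014 bp in the others (983 to 1037, 981 peaks). In windows of 3 to 9 peaks it was 906 bp (875 to 936), 935.5 bp (879 to 1024) and 963 bp (948 to 977). In windows of at least 10 peaks the 3 medians were 907.5, 938 and 898.5 bp, with overlapping intervals. On the other autosomes peaks were thus wider where there were few, while on chromosome 7 the intervals of the sparse and the crowded windows overlapped. Along chromosome 7 the medians of the 3 parts of the span were 852 bp (790 to 906), 922 bp (858 to 1038) and 948 bp (880 to 1011). In label 17 they were 920, 920.5 and 1000 bp.

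**Figure D5:**
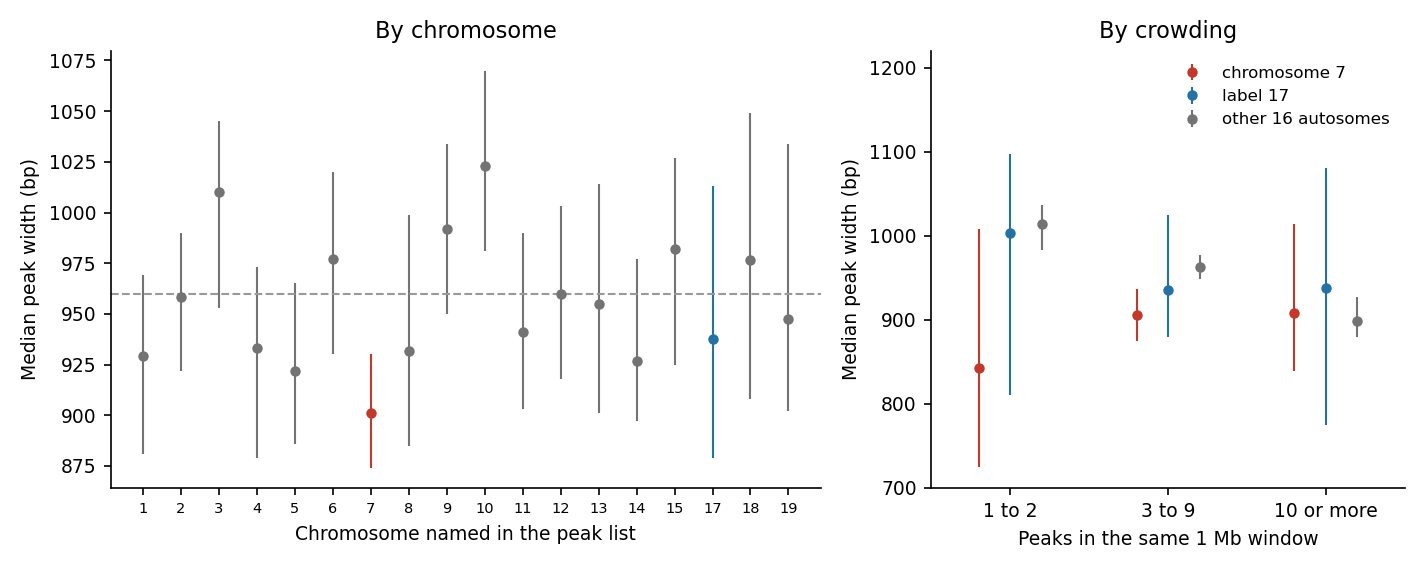
Median peak width in bp (vertical axes, with 95% order-statistic intervals; axes do not start at 0) for each chromosome name in the list (left, dashed line at the pooled others) and by the number of peaks in the same 1 Mb window (right). Over all peaks, chromosome 7 had the smallest median, 901 bp, and lay lowest in windows of 1 to 2 peaks.

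Shares of wide peaks were not separated from those of the other autosomes. Peaks over 2000 bp numbered 7 on chromosome 7 (1.58%, 0.638 to 3.23) and 3 in label 17 (1.27%, 0.263 to 3.67), against 132 in the others (2.31%, 1.93 to 2.73), and both intervals include the pooled share. At over 1500 bp the shares were 8.13%, 11.4% and 10.8%, so that label 17 lay below the others at the larger width and above them at the smaller one. The widest of chromosome 7 lay from 71082263 to 71084994 and measured 2732 bp, with its nearest neighbour 108 kb away. It was followed by regions of 2216 bp (35438543 to 35440758), 2165 bp (123174174 to 123176338), 2096 bp (38967890 to 38969985) and 2093 bp (121558160 to 121560252). The widest of label 17 measured 2405 bp (4558490 to 4560894), less than the widest peak of each of the other 16 autosomes, the nearest being 2411 bp on chromosome 1. Regions of 2125 bp (50528460 to 50530584), 2092 bp (18876165 to 18878256), 1988 bp (76372434 to 76374421) and 1949 bp (90142923 to 90144871) came next. The region of 1988 bp stood alone, 605 kb from the nearest peak.

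The narrowest peak of chromosome 7 measured 365 bp (51502181 to 51502545) and lay 134 bp from its neighbour. The next were 380 bp (34953170 to 34953549) and 416 bp (144629338 to 144629753), each over 25 kb from any other. In label 17 the narrowest measured 449 bp (15594151 to 15594599), 465 bp (46009997 to 46010461) and 477 bp (17576373 to 17576849). No other autosome had a narrowest peak as wide as 449 bp, the next being 400 bp on chromosome 10. Extreme widths depend on the number of peaks, and only chromosome 18 had fewer peaks than label 17. The same limit applies to the widest peak of label 17.

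Over all peaks, the share with a near neighbour was close to that of the other autosomes on both. On chromosome 7, 67 peaks (15.1%, 11.9 to 18.8) had another within 10 kb, edge to edge, and in label 17, 40 did (16.9%, 12.4 to 22.4). The pooled share of the others was 14.9% (13.9 to 15.8) and lies in both intervals. Among the widest 50% of the list, 0 of 113 peaks of label 17 had a neighbour within 10 kb, against 5.02% in the others, and all 16 lay above it. A limit of 3 in 113 peaks, or 2.65%, for a count of 0 would treat peaks as separate. Peaks with a neighbour come at least in pairs, so that limit is too low and does not set label 17 apart from the others. On chromosome 7 the share was 3.74%, with 11 of the 16 above. Over all peaks, those with a neighbour formed 31 clusters on chromosome 7 and 20 in label 17. Peaks in clusters had a median width of 835 bp (750 to 889) on chromosome 7, against 913 bp (884 to 948) for the rest. In label 17 the medians were 824.5 bp (736 to 893) and 1002.5 bp (910 to 1057), whose intervals do not overlap. On the other autosomes they were 855.5 bp (820 to 889) and 976 bp (964 to 988), and these intervals do not overlap either. Peaks with another less than 500 bp away numbered 32 on chromosome 7 (7.22%) and 14 in label 17 (5.93%), against 6.45% in the others.

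Larger clusters were found on chromosome 7 and not in label 17. All 20 clusters of label 17, with 236 peaks, were pairs, as were all 32 of chromosome 4, with 453 peaks. Chromosome 7 had 5 clusters of 3 among 443 peaks, and chromosome 11 also had 5 among 552. The pooled others had 36 clusters of 3 or more among 5723 peaks. Whether counts this small differ was not tested. The most compact cluster of chromosome 7 spanned 2.79 kb (87169640 to 87172425), with peaks of 774, 883 and 828 bp that lay 121 and 180 bp apart. Another of 3.78 kb (140313119 to 140316893) held peaks of 1293, 1722 and 610 bp, 109 and 41 bp apart. Merging peaks less than 500 bp apart makes each of these clusters 1 region. The other three were looser. The widest peaks stood in the cluster from 123174174 to 123184550, which held peaks of 2165, 1384 and 1898 bp with gaps of 596 and 4334 bp. The cluster from 77495858 to 77506984 held peaks of 825, 853 and 916 bp. The one from 148652734 to 148668330 held peaks of 578, 1166 and 738 bp with gaps of 7505 and 5610 bp, and lay in the window of 12 peaks from 148000001 to 149000000.

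The first and last peaks of chromosome 7 lay at 3332837 to 3333530 and 152391746 to 152392846. Those of label 17 lay at 3846365 to 3847758 and 94791701 to 94792754. The span so defined was 149 Mb for chromosome 7 and 90.9 Mb for label 17, of which the peaks covered 0.288% and 0.262%, against 0.285% in the others.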

How the data were processed

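The authors deposited 1 peak list for mouse, which the labels assign to both SOX9 libraries and the input. Its 4 columns are chromosome, start, end and width in bp, and the width equals end minus start in every line. Not given in the sources used here were aligner and peak calling settings, and whether replicates were pooled. The submitters' processing notes name the build mm9. The bovine list was not used here. Starts were taken as counted from 0 and are printed counted from 1.

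The chromosomes, lists and regions were chosen with earlier results of these data known. Named for each chromosome are its 5 fullest 1 Mb windows with ties, 5 longest peak-free stretches, 5 widest and 3 narrowest peaks, clusters of 3 or more, its longest run of filled windows, and its first and last peak. Windows start at position 1, peaks were assigned by midpoint, and windows touching the span were counted. Intervals are exact Poisson (density), exact binomial (shares), exact conditional (ratios) and order-statistic (medians), from SciPy 1.17.1 and NumPy 2.4.6 in Python 3.11.15, tested on simulated lists. Neighbouring peaks are not independent, which these intervals ignore. Gene numbers are protein-coding genes of the RefSeq table of GRCm38, with families assigned by symbol. Shifts of up to 8 Mb were tried in the check of names, which was added after the data were seen. Genes at peaks and peak sequences were not analysed here, because the references used are not of mm9.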

Additional observations from a re-analysis of the deposited data

How the results depend on the processing

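With 1 list for all libraries, no replicate could be left out. No paired analysis was possible because the list carries no value per replicate. Of 42 alternative values, 13 stayed within the interval of the main value (or within 1.5 times, for counts) and 29 moved, most of them as the changed threshold requires. The genes of chromosome 16 were chosen as an alternative after the data were seen. They gave label 17 34.8 peaks per 100 genes, and 37.1 without the tandem families, in place of 22.3. Leaving out the families gave 32.5 on chromosome 7 and 27.5 in label 17 with genes of chromosome 17. With filled windows as the denominator, the density of chromosome 7 relative to the others was 1.18 in place of 1.07. Among the widest 50% of the list it was 0.890, on the other side of equality, with no interval computed. That cut kept 187 of 443 peaks of chromosome 7 and 2909 of 5723 of the others, so the fall goes with the smaller widths of chromosome 7. With the same widest peaks, 47.7% of windows were empty on chromosome 7 and 46.7% in label 17, against 37.8% in the others. They gave 21 stretches on chromosome 7, and median widths of 1243 and 1221 bp. Neighbours within 10 kb were found for 3.74% on chromosome 7 and 0% in label 17, against 5.02% in the others. The median of 1243 bp on chromosome 7 was above that of the others, 1209 bp. Windows of 500 kb were empty in 48.2% and 50.8%, against 44.0% in the others, and 4 and 1 of the 16 lay above. Windows of 2 Mb were empty in 15.8% and 14.9%, against 11.7% in the others, and 1 and 4 of the 16 lay above. Stretches of at least 1 Mb numbered 38 and 23, and of at least 3 Mb 8 and 6. Peaks over 1500 bp made up 8.13% and 11.4%, against 10.8% in the others. Neighbours after merging were 8.22% and 11.4%, against 8.98% in the others. Within 5 kb they were 10.6% and 9.32%, against 10.9%, and within 20 kb 22.1% and 24.6%, against 21.6%. Read depth is unknown, so weakly bound regions missed by the list cannot be told apart from unbound ones.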
